A study of Mus musculus with 29 samples.

Results

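Podocytes sorted before any toxin was given form the starting point of the study, and they were measured on 8 of its 29 arrays. The members are the arrays whose labels place them at day 0: 4 of TdTomato podocytes and 4 of EGFP podocytes, sorted from the same 4 mice (MC122, MC731, MC742 and MC753), so that each mouse gave 1 pair. The other arrays follow podocytes of other mice on days 1, 4 and 7 after LMB2, an immunotoxin that enters cells through human CD25, injected at 25 ng per gram of body weight. From what is known of this mouse line, and not from the labels, human CD25 is carried by the TdTomato podocytes and lacking in their EGFP neighbours. All 8 arrays came from male Pod-hCD25T/G mice on a C57BL/6J background aged 8 weeks, and neither population had met the toxin. According to the labels a heminephrectomy came before LMB2 in the protocol, and they leave unsaid whether the day 0 mice were operated on and which promoter drives the transgenes.

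Podocytes are the epithelial cells that wrap the glomerular capillaries. Their interlocking foot processes are bridged by the slit diaphragm, a junction built around nephrin, and rest on a basement membrane of laminin and type IV collagen that they make together with the endothelium. They are postmitotic cells, held in their differentiated state by transcription factors such as Wt1, Tcf21 and Lmx1b.

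Each value below is the log2 signal of a probe relative to the 75th percentile of its array, so that 0 is the level of a fairly bright spot and a step of 1 is a doubling of the signal. On the day 0 arrays 49.1% to 62.1% of the spots were well above background by the scanner software's test, and 0 spots were saturated. The number of arrays limits the precision. The arrays of each mouse lay on a slide of their own, TdTomato always in the first position and EGFP always in the second. Population and slide position therefore cannot be told apart, nor can mouse and slide. Nothing in the labels says whether the samples of a mouse were handled separately after the sort.

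A gene is called on here where a probe of it was well above background on all 8 arrays, off where none was on any array, and mixed in between. Of 20145 named genes 11979 were on (59.5%), 3128 were mixed (15.5%) and 5038 were off (25.0%). The 4 TdTomato arrays alone had 12099 genes on and the 4 EGFP arrays had 12565. These counts depend on the dimmest array. Spots well above background were 49.1%, 56.4%, 53.7% and 62.1% on TdTomato arrays of MC122, MC731, MC742 and MC753. On the EGFP arrays they were 55.9%, 54.9%, 55.8% and 59.7%. Without MC122, 12543 genes were on. The part of array brightness in the counts by population was not tested. Genes that split by population were few. On all 4 TdTomato arrays and at most 1 EGFP array there was 1 gene, Dnase1, a secreted nuclease. On all 4 EGFP arrays and at most 1 TdTomato array there were 17 of the 20145 genes. Among these 17 genes Cntfr, a cytokine receptor subunit, was on in 0 TdTomato arrays. Dnase1 and Cntfr are named after their values were seen.

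**Figure D1:**
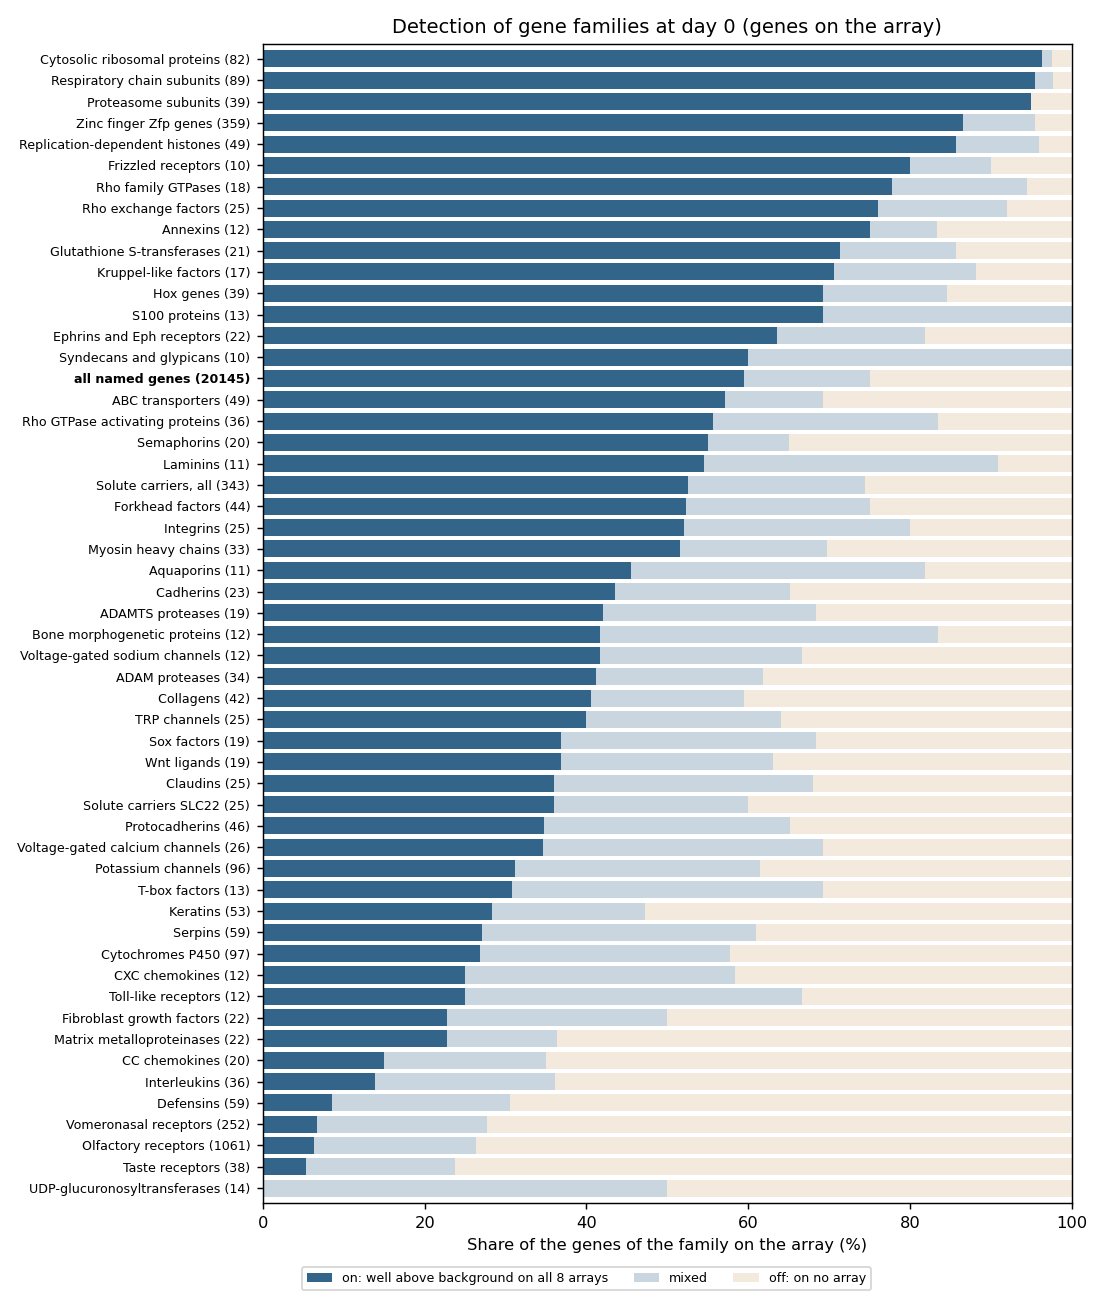
Share of the genes of each family that were on (well above background on all 8 day 0 arrays), mixed or off, with the number of genes on the array in brackets and families of at least 10 genes shown. Ribosomal, respiratory chain and proteasome genes stand at the top with at least 94.9% on, all named genes at 59.5%, and olfactory, vomeronasal and taste receptors (5.3% to 6.7% on) near the bottom, above the UDP-glucuronosyltransferases with 0 on.

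Families of basic cell function were on almost throughout. Of the cytosolic ribosomal protein genes 79 of 82 were on, of the respiratory chain subunits 85 of 89, and of the proteasome subunits 37 of 39. Sensory and defence families were mostly silent: 67 of 1061 olfactory receptors, 17 of 252 vomeronasal receptors, 2 of 38 taste receptors and 5 of 59 defensins were on. These families give a measure of how often a gene that podocytes are not known to use is read as on, and their shares ran from 5.3% to 8.5%. Secreted immune signals lay above that level and below the share of all genes, with 5 of 36 interleukin genes (13.9%), 3 of 20 CC chemokines (15.0%) and 3 of 12 CXC chemokines (25.0%) on. The CXC genes on were Cxcl1, Cxcl10 and Cxcl12. Il1b, Il6 and Ccl2 were off.

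Families that pattern the body and the vessel wall lay on both sides of the 59.5% of all genes, and each held members on and members off. Of 39 Hox genes 27 were on (69.2%), among them Hoxc6 (6.4) and Hoxa7 (4.9). The 6 that were off were Hoxb1, Hoxb13, Hoxc13, Hoxd1, Hoxd12 and Hoxd13. Forkhead factors were on in 23 of 44 (52.3%), including Foxc1, Foxc2, Foxd1 and Foxd2, which act in podocyte and stromal development. Guidance genes that were on included 11 of 20 semaphorins (55.0%), with Sema3g at 6.4 and Sema3a, Sema3c and Sema3d off. Ephrins and Eph receptors were on in 14 of 22 (63.6%). Of 10 Frizzled receptors, which bind Wnt ligands, 8 were on (80.0%), and of 19 Wnt ligands 7 were (36.8%). Of 42 collagens 17 were on (40.5%). Those of the type IV family stood among them. The collagens of fibroblasts were divided: Col3a1 was off, Col1a1 was well above background on 6 arrays, and Col1a2 was on at 7.8. Keratins (15 of 53), cytochromes P450 (26 of 97) and UDP-glucuronosyltransferases (0 of 14), which mark other epithelia and drug metabolism, were on less often than the share of all genes.

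Both sorted populations carried the defining markers of podocytes. Nphs1, which encodes nephrin, stood at 7.79, 7.29, 7.68 and 7.65 in TdTomato podocytes of MC122, MC731, MC742 and MC753, against 7.97, 7.24, 7.43 and 7.52 in EGFP podocytes of the same mice. The populations overlapped fully, and the paired difference was 0.06 ± 0.09 (SE, n = 4 pairs; 95% interval -0.17 to 0.29; limma adjusted p = 0.977). Synpo, the actin-binding protein synaptopodin, was at 7.67 ± 0.10 in TdTomato and 7.55 ± 0.18 in EGFP podocytes (SD, n = 4 each). The transcription factor Wt1 was at 8.21 ± 0.25 in TdTomato and 8.05 ± 0.28 in EGFP podocytes. All 3 genes were well above background on all 8 arrays.

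**Figure D2:**
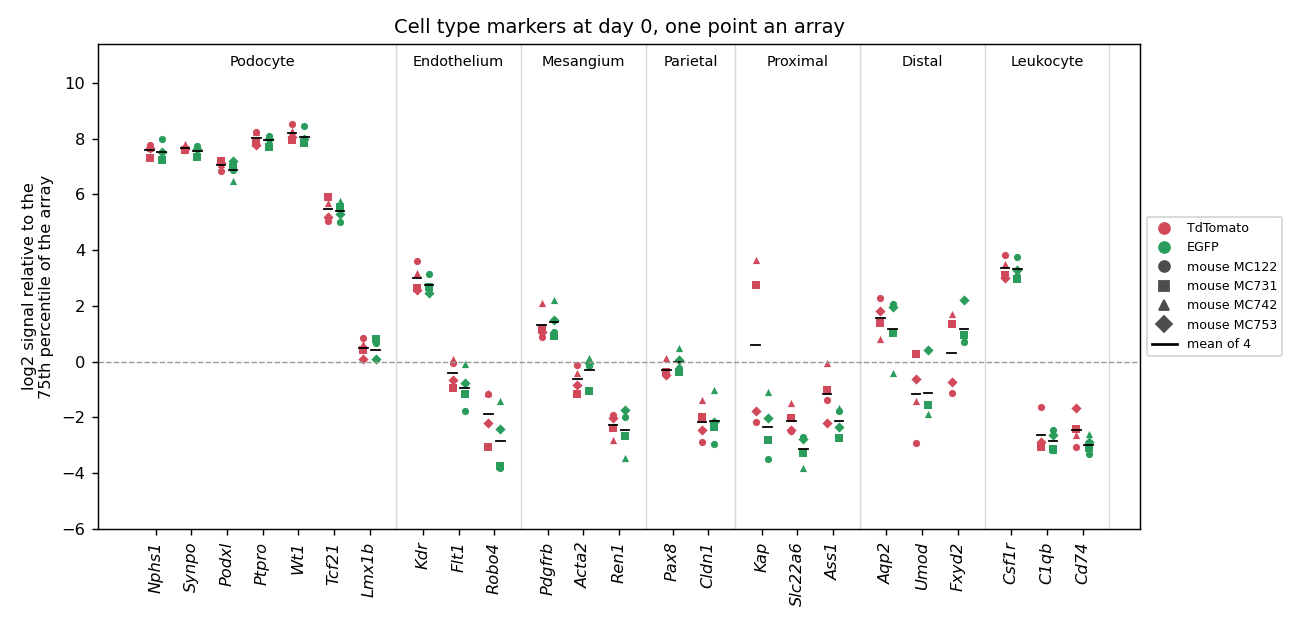
Log2 signal of podocyte markers and of markers of other kidney and blood cells on the 8 day 0 arrays, 1 point an array (TdTomato left, EGFP right), with the shape of a point giving the mouse and a line giving the mean of 4. Nphs1, Synpo and Wt1 lie above 7 on every array in both populations, and Kap of the proximal tubule spreads widely among the TdTomato arrays.

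Slit diaphragm genes were on in 20 of 23. Beside Nphs1 these included Kirrel, Kirrel2 and Kirrel3 of the nephrin complex, and the scaffolds Cd2ap, Tjp1, Magi1, Magi2 and Cask. The cadherin Fat1, the adaptors Nck1 and Nck2, the kinase Fyn, the polarity genes Pard3, Pard6b, Prkci and Crb2, and the signalling genes Iqgap1 and Plce1 were on too. The departures were the channel genes Trpc6, well above background on 3 arrays, and Trpc5, on 0 arrays, and the cadherin Cdh3, on 3 arrays. Kirrel3, a nephrin relative, read -1.38, -1.99, -2.17 and -1.55 in TdTomato podocytes of MC122, MC731, MC742 and MC753, against -1.76, -2.14, -2.28 and -1.81 in EGFP podocytes. Its paired difference of 0.23 ± 0.07 had a 95% interval of 0.04 to 0.41 and was not called (limma adjusted p = 0.925). The differences of Pard6b (-0.09, interval -0.30 to 0.11) and Magi2 (0.18, interval -0.10 to 0.45) were not called either.

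Of 14 podocyte transcription factors 12 were on, among them Wt1, Tcf21, Foxc1, Foxc2, Foxd1, Foxd2, Lmx1b, Tead1, Nr3c1, Zbtb7c and Osr2. Tcf21 stood at 5.47 ± 0.41 in TdTomato and 5.41 ± 0.33 in EGFP. Zhx2 was well above background on 7 arrays and Lhx9 on 1. Of the 12 that were on, Osr2 had the largest paired difference (-0.31 ± 0.10, adjusted p = 0.918), with values of -2.72 ± 0.30 in TdTomato and -2.41 ± 0.41 in EGFP podocytes. Factors that specify other nephron parts were mostly not on. Of 20 genes on that list 5 were on (Pax8, Lhx1, Sall1, Irx3 and Eya1) and 7 were off, among them Six2 of nephron progenitors and Tfap2b of the distal nephron.

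The glomerular basement membrane list had 18 of 20 genes on, and the differences of its mature components were near 0. The chains of the adult membrane, Lama5, Lamb2, Lamc1, Col4a3, Col4a4 and Col4a5, had paired differences from -0.09 (Lama5) to 0.06 (Lamb2), and Col4a6 had -0.01. Agrin (Agrn), Col18a1, nephronectin (Npnt), Nid2, Hspg2 and the integrins Itga3 and Itgb1, which anchor the cell to the membrane, had differences from -0.12 (Npnt) to 0.11 (Col18a1). The chains that glomerular endothelium and mesangium share, Col4a1, Col4a2, Lamb1 and Nid1, had lower means in TdTomato podocytes, by values from -0.38 (Lamb1) to -0.20 (Nid1), with intervals that include 0. Col4a1 was at -1.16 ± 0.69 in TdTomato and -0.84 ± 1.12 in EGFP podocytes. Lama1, the laminin chain of the immature membrane, was well above background on 7 arrays and had a difference of -0.88 (95% interval -1.72 to -0.03, limma adjusted p = 0.963), and Lama4 was well above background on 2. No member of the list was called, and the intervals of Lama1, Col4a1 and Lamb1 reached below -1.

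Genes of the foot process surface and cytoskeleton were on in 28 of 31. Their brightest members were Ptpro, a receptor phosphatase (8.02 ± 0.24 in TdTomato, 7.95 ± 0.17 in EGFP), Clic5, an ezrin partner (8.01 ± 0.15 in TdTomato, 7.87 ± 0.13 in EGFP), and Mapt, the microtubule protein tau (7.91 ± 0.46 in TdTomato, 7.79 ± 0.45 in EGFP). The intermediate filament genes Nes and Vim were on as well. Pla2r1 and Arhgap24 were off, and the cytokinesis gene Anln was well above background on 4 arrays. Of 7 inhibitors of cyclin-dependent kinases 4 were on, with Cdkn1c, the inhibitor p57 of resting podocytes, at 9.22 ± 0.39 in TdTomato and 9.02 ± 0.34 in EGFP podocytes. Of 28 genes of the cell cycle and mitosis 15 were on (53.6%), near the 59.5% of all genes. Another 9 were mixed and 4 were off, Top2a, Aurkb and Bub1 among them.

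Signals between podocytes and the capillary were on in 25 of 35. Vegfa, the growth factor on which the glomerular endothelium depends, was at 7.88 ± 0.24 in TdTomato and 7.84 ± 0.20 in EGFP podocytes, and its interval was -0.13 to 0.21. Efnb1, Plat (tissue plasminogen activator), Ctsl, Sema3g, Dach1 and Cxcl12 were on in both populations with differences from 0.03 to 0.12. Slit2, Slit3 and Sema3a were off. Of 54 receptors for hormones and transmitters 26 were on, including Pth1r of parathyroid hormone (8.01 in TdTomato, 7.95 in EGFP) and Npr3, the natriuretic peptide clearance receptor (4.78 in TdTomato, 4.79 in EGFP). Agtr1a, the angiotensin receptor, was on at -1.63 in TdTomato and -1.81 in EGFP podocytes, and Agtr1b and Agtr2 were off. Immediate early genes, which many cells induce within minutes of handling, were on in 23 of 25. Jun stood at 9.32 ± 0.47 in TdTomato and 9.08 ± 0.36 in EGFP podocytes, and Nr4a1, Fosb, Jund, Egr1 and Klf6 were also among the 100 brightest genes. The sort and the dissociation precede all 8 arrays, and their part in these levels was not tested.

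Of 15 genes of toxin uptake and target 11 were on, 2 were mixed and 2 were off. Eef2, the elongation factor that Pseudomonas exotoxin modifies, was at 6.53 in TdTomato and 6.41 in EGFP podocytes, with an interval of -0.05 to 0.29. The genes of the diphthamide pathway, which builds the modified residue that the toxin recognises, were on: Dph1, Dph2, Dph3, Dph5, Dph6 and Dph7 had differences from -0.17 (Dph7) to 0.05 (Dph1). Furin, the protease that cuts the toxin, was at 1.89 in TdTomato and 1.83 in EGFP podocytes. Lrp1, Kdelr1 and Kdelr2 were on too. Of the mouse interleukin 2 receptor genes Il2ra and Il2rb were off and Il2rg was well above background on 2 arrays, and Kdelr3 was on 7. Values for the human CD25 transgene, TdTomato and EGFP were not analysed here.

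Brightness ranks on an array depend on the probe as well as on the transcript, so they order signals and not abundances. Leaving aside ribosomal and mitochondrial genes and clone names, the 20 brightest genes included Slc10a1, F10, Kctd14, Nlrp1a, Elk1, Actb, Exosc2, Sparc, Ubb, Ripor1, Ttc38, Mgl2, Myl6, Jun, Zfp628, Milr1, Cdkn1c and Myom2. Actin (Actb), myosin light chain (Myl6), the ubiquitin gene Ubb and the matrix protein Sparc are genes of high expression in many cells. For the first 5 names the other probes of the gene read far lower, so the match of the bright probe to the gene is uncertain. In Slc10a1, a bile acid carrier of the liver, the bright probe read 9.30 to 10.40 over the 8 arrays while the other probe of the gene averaged -5.12. In F10, a clotting factor, the other probe averaged -7.10, and for Kctd14, Nlrp1a and Elk1 0 other probes were well above background on all 8 arrays. The same doubt touches Ttc38 and Zfp628, whose brightest other probes averaged 0.08 and 1.04, and Milr1, whose dimmest averaged 1.05. When the probes of a gene were averaged, 12 of the 20 genes remained, and the lost ones were Elk1, Kctd14, Milr1, Nlrp1a, Slc10a1, Sparc, Ttc38 and Zfp628. Among the 100 brightest genes 14 were ribosomal or mitochondrial, 6 belonged to the podocyte lists (among them Ptpro, Clic5, Mapt, Nes and Wt1) and 0 to the basement membrane list.

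Between the populations limma called 0 of 13753 genes (0%), with the mouse as a replicate block, at a smallest adjusted p of 0.472. At an unadjusted p under 0.05 there were 705 genes (5.13%). Without the block the count was also 0 genes, with 71 at an unadjusted p under 0.05. With the mouse as a random replicate block 3 genes were called, all lower in TdTomato: Ltbp2 (-1.37, adjusted p = 0.00342), Nrcam (-1.28, adjusted p = 0.0356) and Wfdc16 (-1.22, adjusted p = 0.0356). The intervals say how much room this leaves: for 12873 genes (93.6%) the 95% interval of TdTomato minus EGFP lay within 1 log2 unit either side of 0, and the median half-width of the intervals was 0.227. Precision depended on brightness. Of the 1363 genes with a mean below -4, 57.5% had such an interval, and of the 3105 genes with a mean between 0 and 2, 99.5% did. In 75 genes the mean difference was beyond 1, and 49 of these had a mean below -4.

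**Figure D3:**
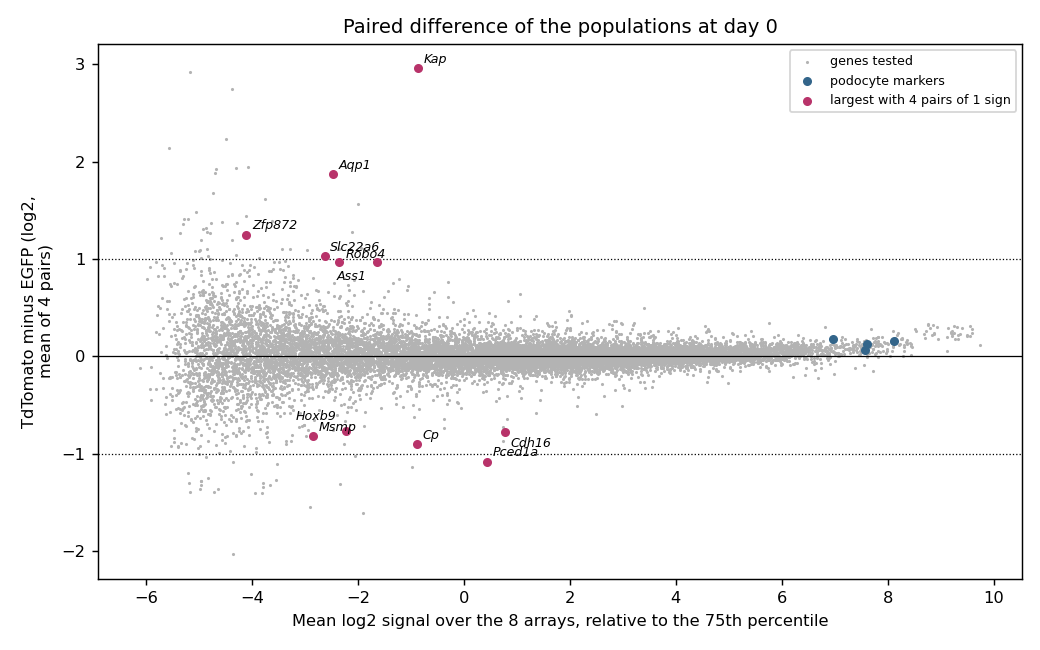
Mean paired difference TdTomato minus EGFP (log2, 4 pairs) against the mean log2 signal over the 8 day 0 arrays for the 13753 genes tested, with podocyte markers and genes with the largest differences in each direction marked. Kap (2.96) and Aqp1 (1.87) stand highest among the marked genes, the scatter narrows as signal grows, and 0 genes were called.

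Bright genes sat slightly above 0 as a class. The 70 genes with a mean of at least 8 had a median difference of 0.19, with 0.22 in MC122, 0.05 in MC731, 0.43 in MC742 and 0.06 in MC753, against 0.01 over all genes tested. With quantile normalization, which gives every array the same distribution, the median of these 70 genes was 0. The differences of Jun (0.24), Cdkn1c (0.20) and Wt1 (0.16) moved in the same way, to 0.01, -0.03 and 0.03 with quantile normalization.

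The genes with the largest differences, among those on in all 8 arrays whose 4 pairs had the same sign, included several genes of the renal tubule. By the same rule of 4 pairs, 854 genes were higher in TdTomato (6.21%) and 783 lower (5.69%). The highest was Kap, the androgen-regulated protein of the proximal tubule. It read -2.16, 2.74, 3.64 and -1.78 in TdTomato podocytes of MC122, MC731, MC742 and MC753, against -3.49, -2.81, -1.08 and -2.01 in EGFP podocytes. The gap lay in MC731 and MC742, while in MC753 the values were close. The mean difference was 2.96 ± 0.98 (95% interval 0.48 to 5.44; adjusted p = 0.926).

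Aqp1, the water channel of the proximal tubule and of some endothelia, did separate the populations in every pair. It read -0.79, -1.37, -1.81 and -2.16 in TdTomato podocytes, against -3.81, -2.91, -3.56 and -3.32 in EGFP podocytes, with no overlap. Its difference of 1.87 ± 0.31 was not called (adjusted p = 0.663), and with normexp background correction, where it was 0.83, it was (adjusted p = 0.00707). The other high genes were the zinc finger gene Zfp872 (1.25), the organic anion transporter Slc22a6 (1.02), the urea cycle enzyme Ass1 (0.97) and the endothelial receptor Robo4 (0.97), none of them called. Single mice weighed on these means: Zfp872 was 0.38 without MC753, Slc22a6 0.59 without MC742 and Robo4 0.41 without MC122.

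In the other direction the genes included Pced1a (-1.08), ceruloplasmin (Cp, -0.90), Msmp (-0.82), the kidney cadherin Cdh16 (-0.78) and Hoxb9 (-0.77). Cp read -2.43, -1.23, -0.56 and -1.10 in TdTomato podocytes, against -1.75, -0.63, 0.54 and 0.14 in EGFP podocytes. The groups overlapped, but each pair was lower in TdTomato, and the difference was -0.90 ± 0.13 (adjusted p = 0.595). Cdh16, which tubule cells carry, was at 0.39 ± 0.72 in TdTomato and 1.17 ± 0.79 in EGFP podocytes. Pced1a rested on 1 array: TdTomato of MC753 read -2.84, and its other 3 TdTomato arrays read 0.46 to 1.18, against 0.51 to 1.34 in EGFP, and its difference was -0.11 without MC753. Hoxb9 was -0.28 without MC731, and Msmp and Cdh16 were each -0.54 without MC753.

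The lists of other cell types are described next as groups. They overlap with the genes just named, such as Robo4, and were chosen with earlier results of these data known. They are therefore no second test of those differences. Markers of the proximal tubule had a median difference of 1.11 over 19 genes tested, against 0.01 over all genes tested. By mouse the median was 0.22 in MC122, 1.78 in MC731, 2.21 in MC742 and 0.07 in MC753. Of the 19 genes 8 were higher in TdTomato in 4 pairs and 0 were lower in 4 pairs, where all genes gave 6.21% and 5.69%, and 0 were called. The log2 of their summed signal was 1.58, 3.76, 4.61 and 1.5 in TdTomato of MC122, MC731, MC742 and MC753, against 1.27, 1.34, 2.32 and 1.46 in EGFP. TdTomato of MC731 and MC742 thus stood apart from the other 6 arrays. Of the 29 proximal tubule markers on the array 8 were on, 19 were mixed and 2 (Slc22a8 and Hao2) were off. Among the mixed ones Slc22a12, Napsa, Ttc36, Slc13a3, Ggt1 and Slc3a1 were well above background on 2 TdTomato arrays and 0 EGFP arrays. The 19 genes tested are those well above background on at least 3 arrays, a filter that a gene high in 1 population can pass through that population alone, so their median and counts describe them and support nothing further. In these bulk samples, fewer cells of a type and less RNA per cell cannot be told apart.

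**Figure D4:**
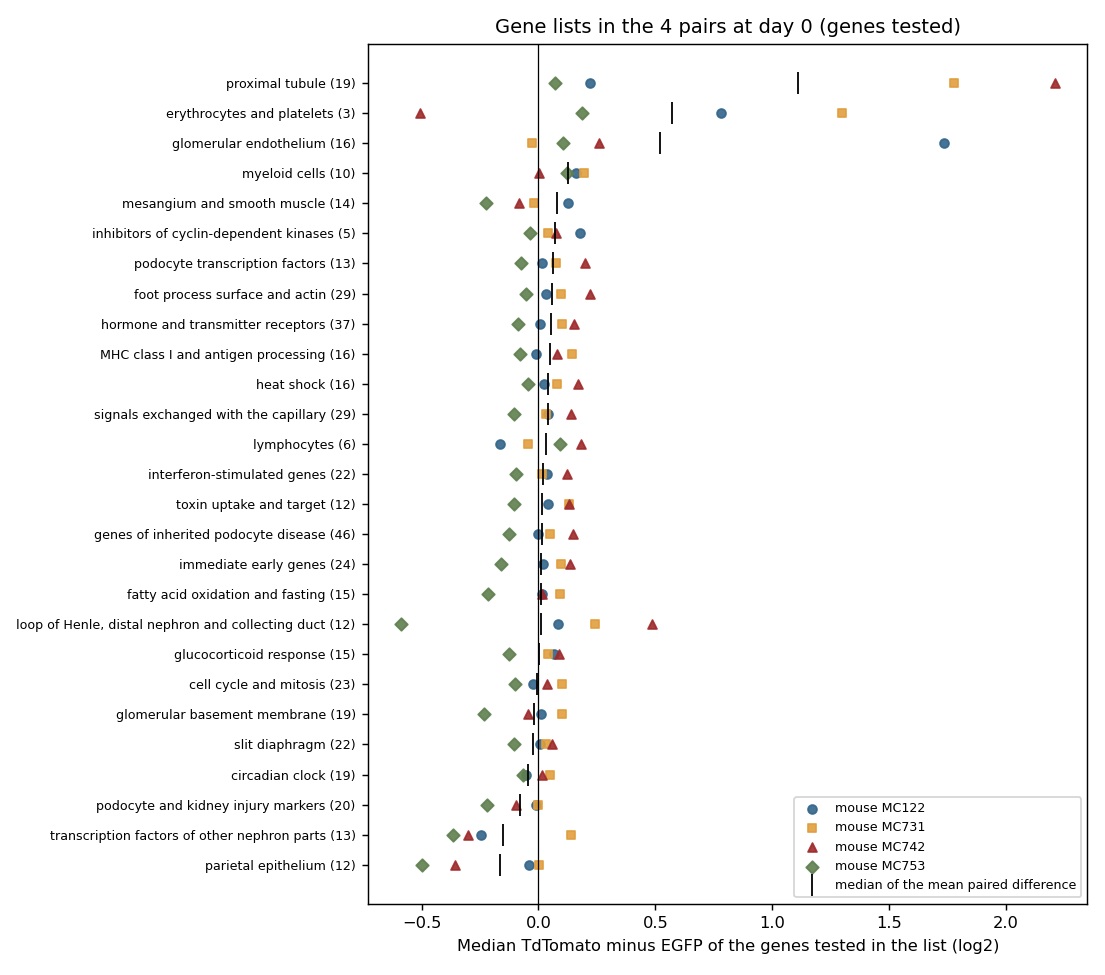
Median TdTomato minus EGFP (log2) of the genes tested in each of 27 lists, with 1 point for each of the 4 mice and a tick at the median of the mean paired difference. The podocyte lists lie close to 0 in every mouse, while the proximal tubule list reaches 1.78 and 2.21 in MC731 and MC742 and the endothelial list 1.74 in MC122.

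Endothelial markers differed in another mouse. Their median over 16 genes was 0.52, with 1.74 in MC122, -0.03 in MC731, 0.26 in MC742 and 0.11 in MC753. Of the 16 genes 4 were higher in TdTomato in 4 pairs and 0 were lower, where all genes gave 6.21% and 5.69%. The 16 genes passed the same filter of at least 3 arrays, so their median and counts too describe them and support nothing further. Robo4 read -1.17, -3.05, -1.11 and -2.18 in TdTomato podocytes and -3.81, -3.75, -1.41 and -2.42 in EGFP podocytes, and in MC122 Flt1, a Vegf receptor, read -0.03 in TdTomato and -1.75 in EGFP. Cldn5 and Kdr, members of the endothelial list, were on in both populations at 7.60 and 3.01 in TdTomato and at 7.54 and 2.75 in EGFP. Which cells gave the bright Cldn5 signal was not tested. Of the 18 markers 12 were on, and the log2 of the summed signal ran from 7.38 to 8.03 in TdTomato and from 7.40 to 7.88 in EGFP. This sum lay close to the level of Cldn5 and says little of the other markers. In MC122 it was 7.97 in TdTomato and 7.88 in EGFP, where the median difference of the list was 1.74.

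Parietal epithelium markers had a median of -0.16 over 12 genes (-0.04, 0.00, -0.36 and -0.50 in the 4 mice). Of the 12 genes 5 were lower in TdTomato in 4 pairs and 0 were higher, where all genes gave 5.69% and 6.21%. The filter of at least 3 arrays limits this list and the ones that follow in the same way. Distal nephron markers had a median of 0.01 that ran from -0.59 in MC753 to 0.48 in MC742. Mesangial and smooth muscle markers had 0.08. Of the myeloid markers 6 of 18 were on: Csf1r (3.36 in TdTomato, 3.31 in EGFP), Itgam (5.24 in TdTomato, 5.26 in EGFP), C1qb, Fcer1g, Cd74 and H2-Ab1. Another 6 were off, the macrophage genes Lyz2, Cx3cr1, C1qa and C1qc among them, and the log2 of the summed signal of the list was 5.34 to 5.84 in TdTomato and 5.24 to 6.04 in EGFP. Of the lymphocyte markers 4 of 14 were on, with Cd3d, Cd79b and Ms4a1 off, and of erythrocyte and platelet markers 1 of 12 was on. The part of these other cells in the differences between populations was not tested. Against this, the medians of the podocyte lists were -0.02 for the slit diaphragm, 0.06 for the foot process and 0.06 for the transcription factors, with 0 members called.

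Differences between the mice, each on a slide of its own, were far larger than those between the populations. The same fit called 7277 of 13753 genes between the 4 mice (52.9%, moderated F test of limma), and the median SD was 0.28 between mouse means and 0.13 within pairs after the population mean was removed. Arrays of the same mouse correlated at 0.992 to 0.994 across genes, and arrays of different mice at 0.970 to 0.989. MC122 decided much of the count, since without it 1258 genes were called, while without any other mouse 4983 to 6918 were. For each mouse, the deviations of its day 0 arrays correlated with those of the later-day arrays on the same slide at 0.381 to 0.666 across genes, and with those on other slides at 0.123 at most. Deviations are from group means, which in itself lowers the values with other slides. The share of these 7277 calls that belongs to the slide cannot be told apart from that of the mouse.

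Among genes on in all 8 arrays, the largest range between mice was that of Dbp, a transcription factor of the circadian output. It read 2.23, 6.71, 4.33 and 7.02 in TdTomato podocytes of MC122, MC731, MC742 and MC753, against 2.25, 6.67, 4.18 and 7.09 in EGFP podocytes. The order of the mice was the same in both populations and the values within each pair were close, while mouse means spanned 4.81 (adjusted p = 0.0013). Hlf, a relative of Dbp, read -3.46, 0.59, -1.38 and 0.82 in TdTomato and -3.50, 0.76, -1.25 and 0.74 in EGFP podocytes (range 4.26, adjusted p = 0.00196). Arntl, the clock activator Bmal1, ran the other way, at 1.93, 0.04, 1.77 and -1.27 in TdTomato and 2.02, -0.07, 1.92 and -0.70 in EGFP podocytes (range 2.95, adjusted p = 0.00906).

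The circadian clock is a loop in which the Arntl protein and its partner Clock drive the Per, Cry, Dbp and Nr1d1 genes through E-boxes, and the products of Per, Cry and Nr1d1 hold them back. Of 19 clock genes tested 16 were called between mice (84.2%, where all genes gave 52.9%), and their median range was 2.43, against 0.63 over all genes. The genes ran in more than one direction. Tef, Nr1d1, Bhlhe40, Bhlhe41, Ciart and Per3 were lower in MC122 and MC742 than in MC731 and MC753 in both populations, and Nr1d2 was lowest in MC122. Npas2, a partner of Arntl, Cry1 and Nfil3, a repressor of the output genes, were highest in MC122, as Arntl was. Npas2 was well above background on 4 arrays, Cry1 on 6, and Per3 and Bhlhe41 on 7 each. The low ends of their ranges are therefore readings near the background. Per2 stood apart in MC122 only, at -1.81 in TdTomato and -1.33 in EGFP, where the other 3 mice read 0.69 to 0.80 in TdTomato and 0.66 to 1.01 in EGFP. Per1, Cry2 and Clock, with ranges of 0.29, 0.35 and 0.52, were not called. None of the 19 genes was called between the populations, and the median difference was -0.05. Without MC122 10 of the 19 were called, where all genes gave 9.15%, and without any other mouse 16 were.

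**Figure D5:**
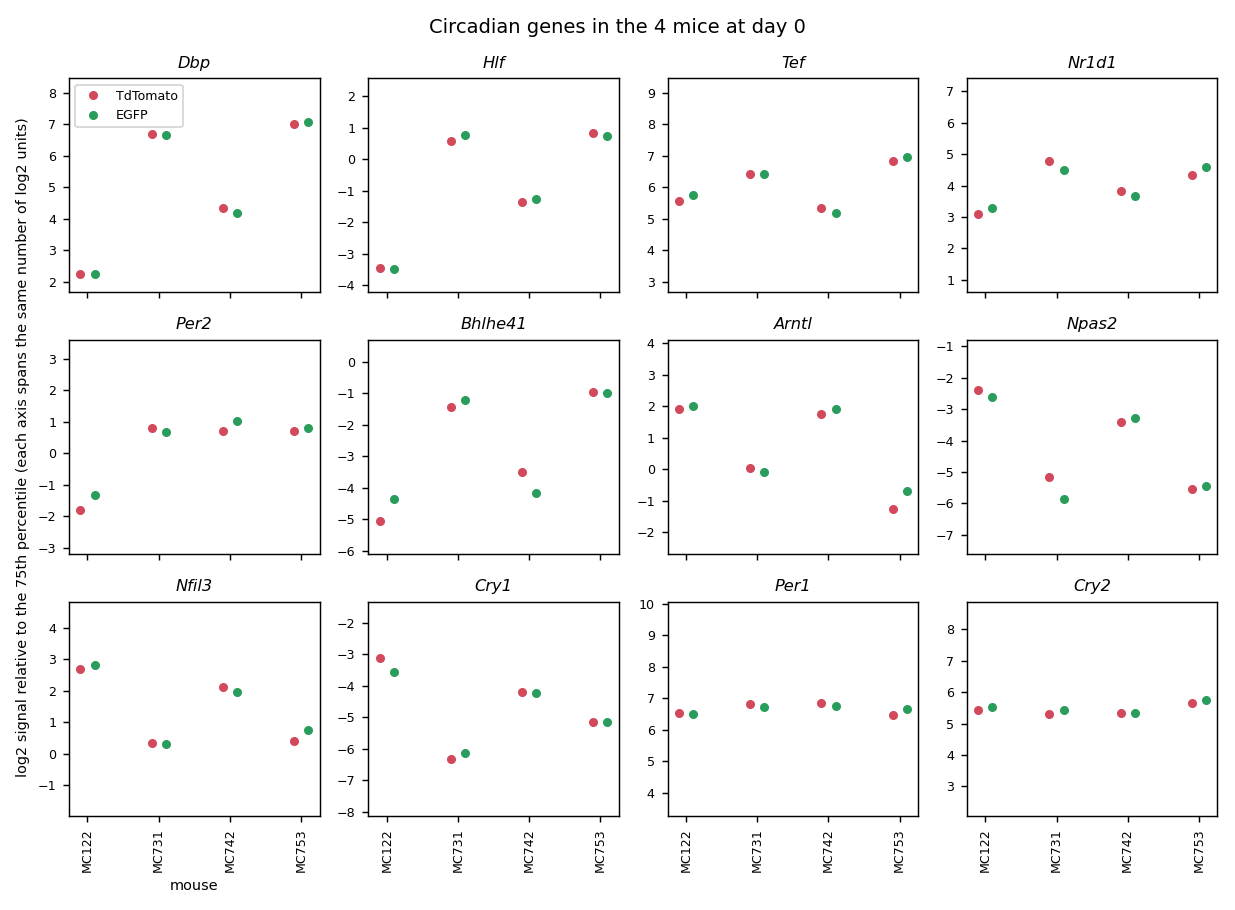
Log2 signal of 12 circadian genes in the 4 mice at day 0, TdTomato left and EGFP right for each mouse, with every panel spanning the same number of log2 units. Dbp and Hlf are lowest in MC122 and highest in MC753 or MC731, Arntl, Npas2, Cry1 and Nfil3 are highest in MC122, both populations of a mouse lie close together, and Per1 and Cry2 are flat.

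The later-day arrays of the same slides give a value to set beside these. In Dbp the day 0 arrays lay at -2.82 from their group means in MC122 and at 1.99 in MC753, and the later arrays on those slides at 0.57 and -0.62. In Arntl the day 0 arrays lay at 1.27 in MC122 and -1.69 in MC753, and the later arrays at -0.22 and 0.71. Other clock genes had the same sign in both: Per2 lay at -1.76 at day 0 in MC122 and -0.44 on the later arrays of its slide, Cry1 at 1.38 and 0.53, and Rora at -0.51 and -0.29. Kash5, Vax2 and Olfr1466, also among the 12 widest ranges, lay at 1.83, 1.74 and 1.76 at day 0 in MC122 and at 1.59, 1.26 and 1.39 on the later arrays of its slide. Mouse and slide cannot be told apart in any of these genes. The labels do not state at what time of day the mice were killed, and its part was not tested.

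The promoters of clock genes are shown because most of these genes differed between mice, some high where others were low. RefSeq promoters (build GRCm38.p6) were matched for 16 of the 19 genes, and the 250 bases before the start were searched on both strands for the E-box CACGTG, the D-box TTATGNAA to which Dbp, Hlf, Tef and Nfil3 bind, and the element TAGGTCA of the Ror and Nr1d factors. The E-box letters were found in 5 of the 16 genes (Bhlhe41, Ciart, Cry1, Per1 and Tef), and in 6.02% of 32851 promoters of the same length. The D-box letters were found in 2 (Per1 and Per3, 3.07% of promoters) and TAGGTCA in 1 (Nfil3, 2.23%). The counts are by gene, over any of its promoters, while the shares are by single promoter, so their units differ. A match of letters is a description and not a site, and Per1, which holds both an E-box and a D-box, was not called between mice. The called genes with a match follow, with 1 promoter for each gene, 5′ to 3′ on the strand of the gene, with the matched letters in capitals. Ciart has 3 E-boxes, and Bhlhe41, Cry1 and Tef have 1 each. Per3 has 2 D-boxes, and Nfil3 has TAGGTCA on the opposite strand.
Ciart (chr3:95882229-95882478, minus strand): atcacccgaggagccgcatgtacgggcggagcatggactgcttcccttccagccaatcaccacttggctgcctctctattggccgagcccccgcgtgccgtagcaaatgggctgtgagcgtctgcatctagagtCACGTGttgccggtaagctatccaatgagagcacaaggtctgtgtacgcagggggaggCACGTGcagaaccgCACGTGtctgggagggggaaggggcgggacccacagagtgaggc
Bhlhe41 (chr6:145865421-145865670, minus strand): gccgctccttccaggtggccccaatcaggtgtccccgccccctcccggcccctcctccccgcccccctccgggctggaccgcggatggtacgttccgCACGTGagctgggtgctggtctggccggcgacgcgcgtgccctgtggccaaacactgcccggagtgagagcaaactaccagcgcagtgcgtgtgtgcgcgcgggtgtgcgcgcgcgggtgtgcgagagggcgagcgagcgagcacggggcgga
Cry1 (chr10:85185055-85185304, minus strand): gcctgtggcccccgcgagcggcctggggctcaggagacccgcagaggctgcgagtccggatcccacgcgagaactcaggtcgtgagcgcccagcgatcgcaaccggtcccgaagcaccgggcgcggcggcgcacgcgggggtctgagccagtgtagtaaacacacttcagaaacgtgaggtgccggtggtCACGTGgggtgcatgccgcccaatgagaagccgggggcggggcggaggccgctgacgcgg
Tef (chr15:81802423-81802672, plus strand): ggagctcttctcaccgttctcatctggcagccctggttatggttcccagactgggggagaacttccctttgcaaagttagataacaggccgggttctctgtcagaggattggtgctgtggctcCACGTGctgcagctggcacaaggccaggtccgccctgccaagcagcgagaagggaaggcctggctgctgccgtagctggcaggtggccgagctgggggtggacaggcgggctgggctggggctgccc
Per3 (chr4:151044666-151044915, minus strand): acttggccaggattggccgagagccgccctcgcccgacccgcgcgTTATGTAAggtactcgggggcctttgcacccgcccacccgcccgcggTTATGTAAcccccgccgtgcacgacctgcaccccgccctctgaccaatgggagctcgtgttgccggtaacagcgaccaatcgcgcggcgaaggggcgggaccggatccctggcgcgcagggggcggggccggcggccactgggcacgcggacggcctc
Nfil3 (chr13:52981040-52981289, minus strand): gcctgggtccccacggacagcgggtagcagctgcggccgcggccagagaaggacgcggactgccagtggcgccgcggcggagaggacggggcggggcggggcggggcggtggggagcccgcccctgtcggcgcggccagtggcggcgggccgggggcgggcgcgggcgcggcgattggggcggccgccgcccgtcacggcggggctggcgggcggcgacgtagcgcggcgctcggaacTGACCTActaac

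The genes printed above ranged widely between mice. Ciart, a repressor of the clock, read -5.91, -2.85, -4.88 and -2.70 in TdTomato and -6.53, -3.07, -4.29 and -2.77 in EGFP podocytes of MC122, MC731, MC742 and MC753. It was well above background on 5 arrays. Nfil3 read 2.71, 0.36, 2.13 and 0.41 in TdTomato and 2.82, 0.31, 1.96 and 0.76 in EGFP podocytes. Ciart was thus lowest in MC122, and Nfil3 was highest there. The genes printed with an E-box did not share a direction. Bhlhe41 was lowest in MC122 as Ciart was (mouse mean -4.69), Cry1 was highest there (-3.35), and Tef was lowest in MC742 (5.25).

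Beyond the clock the values differed by mouse, and so by slide, in several unrelated genes. Cyp26b1, which degrades retinoic acid, read -2.56, -3.53, 1.16 and 0.07 in TdTomato podocytes and -3.46, -3.25, 0.84 and 0.25 in EGFP podocytes, high in MC742 and MC753. Zbtb16, a transcription factor that glucocorticoids induce, read -0.23, 3.27, 2.17 and 2.14 in TdTomato and -0.15, 3.29, 2.42 and 2.18 in EGFP podocytes, low in MC122. The later arrays on the slide of MC122 were low in Zbtb16 too, at -1.70 from their group means. Mgll, a lipase, was at 1.60 and 2.08 in TdTomato and at 1.40 and 1.90 in EGFP of MC122 and MC742, against 4.83 and 4.85 in TdTomato and 4.74 and 4.95 in EGFP of the other 2 mice. Wfdc13, Vax2, Kash5 and Olfr1466 were highest in MC122, Spp1 (osteopontin) in MC742 and the probe named Ren2 in MC753. C57BL/6 mice carry Ren1 and lack Ren2, a near-identical copy, so which transcript this probe read is uncertain. Its call ended without MC753 (limma adjusted p = 0.288), without MC742 (0.0574), with no filter (0.0828) and with quantile normalization (0.0556). Without MC122 the calls of Kash5 (0.0519), Spp1 (0.0518) and Olfr1466 (0.0562) ended too.

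Stress and hormone lists are set here beside the 52.9% of all genes called between mice. Of 16 heat shock genes 15 were called (93.8%), among them Hsph1 and Hspa1a with ranges of 2.16 and 2.10. Of 15 glucocorticoid-responsive genes 12 were called (80.0%), among them Zbtb16, Angptl4, Cdkn1a and Mt1, and of 22 interferon-stimulated genes 18 were (81.8%). Angptl4, which fasting also raises, read 2.66, 0.88, 2.60 and 3.06 in TdTomato and 2.76, 0.81, 2.27 and 3.30 in EGFP podocytes, low in MC731. These counts rested in part on single mice. Without MC122, where 9.15% of all genes were called, 5 heat shock, 7 glucocorticoid and 10 interferon genes were, and without MC731, where 36.29% of all genes were called, 12, 7 and 9 were. Of 22 slit diaphragm genes 9 were called (40.9%), below the share of all genes, with a median range of 0.44.

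The populations parted after the toxin, which gives the day 0 values their scale. In a fit of the 4 day 0 mice and the 3 day 1 mice with both populations, TdTomato minus EGFP at day 1 was called in 9439 of 14324 genes (65.9%) and at day 0 in 0, with 483 at an unadjusted p under 0.05. The difference at day 1 departed from that at day 0 in 8299 genes (57.9%), 3691 of them higher and 4608 lower. The circadian list had a median difference of 2.67 at day 1 and -0.05 at day 0. The proximal tubule list of 25 genes had -0.23 at day 1 and 1.16 at day 0. These 25 genes passed a filter of at least 3 of the 14 arrays, which 1 population alone can meet, so the medians only describe them. Over the 19 genes tested at day 0 the median was 1.78 in MC731 and 2.21 in MC742, against 0.22 in MC122 and 0.07 in MC753.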

How the data were processed

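One-colour Agilent arrays were scanned and read with Agilent Feature Extraction 11.5.1.1, per the submitters' processing notes. The deposited files give a background-corrected intensity for each spot, per the file headers, and calls for spots well above background. The deposited series matrix holds log2 values of 39430 probes that differ from the scanner values by a constant on each array. Its scale and direction follow from that match, its centring is not stated, and its day 0 column medians ran from -3.12 to -2.81. All columns used map to a sample (0 do not).

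The log2 intensity minus the log2 75th percentile of the array over non-control spots was computed here, and spots of a probe were averaged. The accession of each probe, matched to RefSeq tables, named 26582 of 55681 probes with 1 gene symbol, 0 with several and 29099 with none, giving 20145 genes. Probes passed the filter with 3 or more day 0 arrays well above background (13753 genes, the brightest probe of each). In 29 genes a value was missing and the fit dropped it.

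limma 3.58.1 in R 4.3.3 fitted population with the mouse as a replicate block, two-sided, with Benjamini-Hochberg adjustment at 0.05 over all genes tested. The mice pair the arrays because both populations come from the same animal. The deviations of paired arrays from their group means correlated at 0.524 to 0.735, against -0.012 at most with another mouse. Deviations from a group mean cancel out over the mice, which pushes the values with other mice below 0, so these are no independent baseline. Without the replicate block 0 genes were called, as with it. Intervals are at 95%, and the scripts were tested on simulated data. Summaries used pandas 2.3.3 and numpy 2.4.6 under Python 3.11.15, and figures matplotlib 3.10.9.

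Alternatives were normexp background correction (offset 50, on the median spot signal because the files used here give no mean signal), quantile normalization, no filter, a filter of all 8 arrays, the mean of probes, the series matrix, other blocks and leaving out each mouse. Genes named are the members of the slit diaphragm, transcription factor and basement membrane lists, up to 8 of other lists, the 20 brightest, the 6 largest paired differences in each direction and the 12 widest ranges between mice. Members and lists were chosen with earlier results of these data known, and the examples given of gene families were picked after their values were seen. Results for some genes that these rules name are not reported here.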

Additional observations from a re-analysis of the deposited data

Results flagged for a closer look

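In 12 of 219 groups of 4 values examined, 1 value lay far from the other 3 (Dixon's criterion at 95%), where chance gives about 1 in 20. The count was close to that share, so the cases are listed without a reading of each. The far value belonged to MC122 in 7 groups, to MC742 in 3, to MC731 in 2 and to MC753 in 0. In EGFP podocytes MC122 was high in bright genes: Exosc2 9.96 (others 8.98 to 9.12), Sparc 10.05 (8.92 to 9.03), Ttc38 9.93 (8.86 to 8.97), Jun 9.62 (8.82 to 8.95), Milr1 9.77 (8.68 to 8.83) and Myom2 9.44 (8.94 to 9.0). All are among the 20 brightest genes and are not separate cases. The highest readings of Exosc2 (10.37), Sparc (10.46), Ttc38 (10.40), Jun (9.88) and Milr1 (10.19) were on TdTomato arrays. That of Myom2 (9.44) was on an EGFP array.

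MC742 stood apart in TdTomato for Magi2 (-2.27, others -1.48 to -1.34) and Col4a1 (-0.13, others -1.64 to -1.41), and in EGFP for Nid2 (1.60, others 1.09 to 1.14). MC731 stood apart in TdTomato for Itga3 (5.55, others 5.22 to 5.25) and in EGFP for Foxd1 (2.95, others 3.49 to 3.50). The median difference of the endothelial list was 1.74 in MC122 and -0.03 to 0.26 in the other 3 mice.

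TdTomato minus EGFP differed between day 1 and day 0 in 8299 genes by the interaction term of limma.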

How the results depend on the processing

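Between the populations 0 genes were called, and the exceptions among the alternatives were few. With the mouse as a random replicate block 3 genes were called, all lower in TdTomato (Ltbp2, Nrcam and Wfdc16), and with normexp 1 (Aqp1). Leaving out each mouse gave 0 calls, and 12558 to 12886 genes with an interval within 1 log2 unit. The count between mice was 7277, and it was 3761 of 20145 genes with no filter and 1258 to 6918 when a mouse was left out, lowest without MC122. The day 1 against day 0 count of 8299 was 4991 with no replicate block and 6980 to 8662 when a mouse was left out. Genes on numbered 11979 when named, 25547 probes when all were counted, named or not, and 11983 to 12543 genes when a mouse was left out. The median of the list of other nephron factors was -0.15, and 0.082 with normexp. The myeloid median of 0.13 was 0.231 with the filter of all 8 arrays and ranged from 0.001 without MC731 to 0.225 without MC742. The cause of these shifts was not tested. Of 1396 alternative values of 100 named genes, 84 turned the sign of an uncalled difference and 1 was called. Signal over background limits precision: 57.5% of genes with a mean below -4 had an interval within 1 log2 unit, against 93.6% of all genes.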

Other observations

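Further gene groups are set beside the shares over all genes, 59.5% on and 52.9% called between mice. Of 46 genes of inherited podocyte disease 41 were on (89.1%), with a median TdTomato minus EGFP difference of 0.01, and 19 were called between mice (41.3%). All 16 genes of MHC class I and antigen processing were on, with a median difference of 0.05, and 9 were called between mice (56.2%), near the share of all genes. Of 18 genes of fatty acid oxidation and fasting 15 were on, with a median difference of 0.01. Of 24 markers of podocyte and kidney injury 16 were on (66.7%), near the share of all genes, at a median difference of -0.08, and the tubular injury receptor Havcr1, the chemokine Ccl2 and the keratin Krt19 were off. None of these genes was called between the populations.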
